A study of Mus musculus with 6 samples.

Results

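Killer lectin-like receptors are C-type lectin-like proteins of the surface of natural killer (NK) cells and of some T cells, and 10 of their genes were followed here in CD8+ T cells from mouse spleen. The 10 were taken from a list of symbols, drawn up with earlier results of these data known (Klrc1, Klrc2, Klrd1, Klrk1, Klrg1, Klre1, Klrb1c, Klrb1f, Klra3 and Klra7), and all 10 were found among the 26181 genes of the table. They were separated by textbook knowledge into 6 receptors that memory or effector CD8 T cells share with NK cells (Klrc1, Klrc2, Klrd1, Klrk1, Klrg1, Klre1) and 4 known mainly from NK cells (Klrb1c, Klrb1f, Klra3, Klra7), although minor subsets of T cells carry the latter too. RNA was sequenced in 6 libraries from wild-type C57BL/6 mice, which were 6 weeks old when a diet of 7 weeks began. The diet of 3 libraries is labelled ND, and that of the other 3 is labelled CDAHFD, an abbreviation commonly used for a choline-deficient, amino acid-defined diet rich in fat, fed to mice as a model of steatohepatitis. The labels give neither the sex of the mice nor the sort or its purity, and the protocol names a kit for whole RNA and one for mRNA without saying which served which library. Values are normalised counts, that is reads per gene divided by 1 factor per library, and a gene is said to have risen or fallen only at a limma adjusted p under 0.05.

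The receptors work by pairing. NKG2A, made from Klrc1, joins CD94, made from Klrd1, into an inhibitory receptor for the nonclassical MHC molecule Qa-1, and NKG2C, made from Klrc2, joins the same CD94 into an activating one. NKG2D, made from Klrk1, is an activating receptor for stress-induced ligands and signals through the adaptor DAP10, made from Hcst. Memory CD8 T cells are known to gain several of these receptors after activation, whereas naive CD8 T cells carry few. Many Ly49 receptors of the Klra genes bind classical MHC class I, and some products of the Klrb1 genes bind lectin-like Clec2 proteins.

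Most of these genes are neighbours on chromosome 6. The 250 bases before a start listed by RefSeq are printed for Klrk1 and for the largest rises among the 10 genes (Klrc1, Klre1, Klrc2). Klrc3, a close copy of Klrc2, is set beside them because the reads of such copies are hard to separate. Capitals mark TGTGGT, the core letters of the Runx motif, on either strand (ACCACA in reverse). The sequences are from RefSeq, and for Klrc2 and Klre1, which have 2 listed starts each, 1 of the starts is shown. It is the downstream start for Klrc2 and the upstream start for Klre1. The gene positions given below are from GENCODE, which places some starts elsewhere. By those positions the Klre1 window lies wholly inside its gene, and the windows of Klrc2 and Klrc3 partly overlap theirs. The marked motifs of Klre1 and Klrc2 then fall inside the gene, so these windows are not plainly upstream sequence.
Klrc1 (GRCm38.p6, chr6:129678974-129679223, minus strand): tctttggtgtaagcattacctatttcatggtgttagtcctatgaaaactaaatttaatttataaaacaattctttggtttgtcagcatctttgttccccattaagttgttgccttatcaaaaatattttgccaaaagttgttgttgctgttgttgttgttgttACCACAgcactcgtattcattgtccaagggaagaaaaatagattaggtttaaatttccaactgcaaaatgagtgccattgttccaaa
Klrc2 (GRCm38.p6, chr6:129660557-129660806, minus strand): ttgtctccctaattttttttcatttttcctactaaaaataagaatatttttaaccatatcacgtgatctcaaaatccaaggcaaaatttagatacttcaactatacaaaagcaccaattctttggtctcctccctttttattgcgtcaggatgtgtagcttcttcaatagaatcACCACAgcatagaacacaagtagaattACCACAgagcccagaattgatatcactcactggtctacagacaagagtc
Klrc3 (GRCm38.p6, chr6:129643289-129643538, minus strand): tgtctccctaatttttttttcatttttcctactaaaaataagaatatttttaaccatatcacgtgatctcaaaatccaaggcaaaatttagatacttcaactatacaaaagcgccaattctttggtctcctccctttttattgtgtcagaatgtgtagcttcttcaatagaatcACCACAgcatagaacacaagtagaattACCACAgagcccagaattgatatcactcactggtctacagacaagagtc
Klrk1 (GRCm38.p6, chr6:129623865-129624114, minus strand): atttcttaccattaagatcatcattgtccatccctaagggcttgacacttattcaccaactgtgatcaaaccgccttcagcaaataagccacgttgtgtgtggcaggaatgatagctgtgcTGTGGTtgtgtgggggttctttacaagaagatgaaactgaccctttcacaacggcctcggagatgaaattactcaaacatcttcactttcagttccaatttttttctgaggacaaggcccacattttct
Klre1 (GRCm38.p6, chr6:129577963-129578212, plus strand): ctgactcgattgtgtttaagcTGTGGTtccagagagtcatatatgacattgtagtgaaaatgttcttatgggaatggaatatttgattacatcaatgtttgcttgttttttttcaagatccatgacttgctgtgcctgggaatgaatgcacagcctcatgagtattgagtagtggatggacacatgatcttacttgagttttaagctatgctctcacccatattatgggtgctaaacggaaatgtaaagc
The windows of Klrc2 and Klrc3 were 98.0% identical, with 246 aligned bases the same, and both held the motif at bases 175 and 202, counted from the 5′ end of the window. Those of Klrc1 and Klrc2 were 47.1% identical, although the genes lie next to each other. Of the 10 genes, 8 had a window in the table, and 5 of those 8 held the motif at some listed start (Klrb1c, Klrc1, Klrc2, Klre1, Klrk1), against 14.0% of all 32851 windows of this length. Klrb1c is among the 5 and was not called. The letters GGTGTGA of a T-box motif occurred in 0 of the 8 (3.33% of all windows), TGANTCA of AP-1 in 0 (6.75%) and CTTTGA of TCF factors in 2, Klra7 and Klrb1f (13.8%). The member counts are of genes with a match in any listed window, whereas the percentages are of single windows. A gene with more than 1 listed start has more windows to hold a match, so counts and percentages are not directly comparable. The motifs were chosen after the expression values were known, and a match is a description of the letters only.

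The receptors that memory CD8 T cells share rose except for one. Of the 6, 5 rose and 1, Klrd1, fell, and of the 4 receptors known mainly from NK cells 3 rose and Klrb1c did not pass the test. Among all 15819 genes tested, 24.6% rose and 22.5% fell. The shared receptors had a median log2 fold change of 1.40 and the NK receptors one of 0.97, beside -0.01 over all genes tested. At least a doubling together with a call was seen for 6 of the 10 genes, 4 shared and 2 NK receptors, and for 9.43% of all genes. The groups did not overlap for 9 of the 10, 8 above and 1 below, as against 54.3% of all genes tested (27.8% above and 26.5% below). Taking both directions together, limma called 47.1% of all genes, edgeR 47.6% (24.7% higher, 22.9% lower) and DESeq2 42.7% (23.1% higher, 19.6% lower), and both count tests gave the same calls for the 10 receptors. In these bulk samples, fewer cells of a type and less RNA per cell cannot be told apart.

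**Figure D1:**
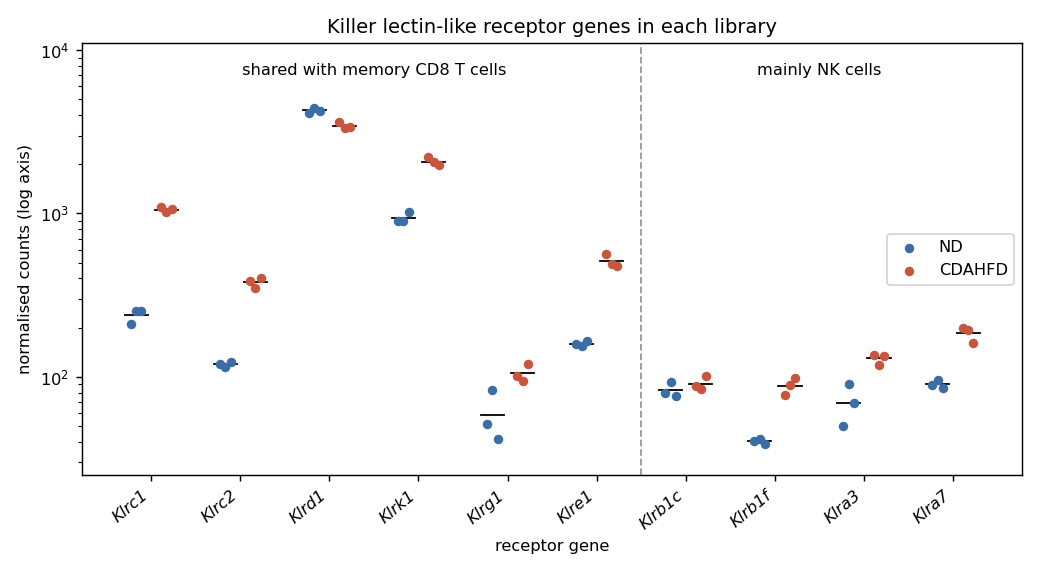
Normalised counts (log axis) of the 10 receptor genes in each of the 3 ND (blue) and 3 CDAHFD (red) libraries, with a bar at each mean; the dashed line separates receptors shared with memory CD8 T cells from those known mainly from NK cells. The diets are apart for 9 genes, with Klrd1 alone lower in CDAHFD libraries, and overlap for Klrb1c.

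Klrc1 (ENSMUSG00000030167, chromosome 6, 129666015 to 129678973 in mm10), the inhibitory chain NKG2A, had the largest rise of the 10. It stood at 211, 253 and 253 normalised counts in the ND libraries and at 1093, 1015 and 1061 in the CDAHFD libraries. Every CDAHFD library was several times above every ND library. The means were 239 ± 24.4 and 1056.5 ± 39.2 (SD, n = 3 per diet), a ratio of 4.425, and the fitted log2 difference was 2.15 (SE 0.08; limma, adjusted p = 5.77e-19).

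Its activating counterpart Klrc2 (chromosome 6, 129647496 to 129660689) read 119.9, 114 and 124 in ND and 386, 351 and 404 in CDAHFD libraries. The groups did not overlap, and within each diet the libraries lay close together. The log2 fold change was 1.66 (SE 0.11, limma adjusted p = 1.44e-13). Of all 50-base windows in the annotated transcripts of Klrc1, 36.6% also occur in transcripts of Klrc2, so the split of reads between the genes is uncertain. For Klrc2 the share of windows found in other genes was 16.3%.

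Klrd1 (chromosome 6, 129591782 to 129598775), whose product CD94 is the common partner of NKG2A and NKG2C, moved the other way. It read 4149, 4431.5 and 4234 in ND and 3615, 3349 and 3366 in CDAHFD libraries. The fall was small, but all 3 CDAHFD libraries lay below all 3 ND libraries, as was so for 26.5% of the genes tested. The means were 4272 ± 145 and 3443 ± 149 normalised counts (log2 fold change -0.31, SE 0.04; limma, adjusted p = 7.67e-07). No 50-base window of Klrd1 transcripts occurs in another gene. Genes that define CD8 T cells were lower in the same libraries: of 8, 0 rose and 7 fell, with a median of -0.41, and their summed level was 118215.5 to 121993.8 in ND and 92310.9 to 96940.2 in CDAHFD libraries. Of these falls that of Trbc2 was lost without any 1 of the ND replicates or CDAHFD replicate 1 (adjusted p = 0.0555 to 0.12). The same call was lost with no filter (limma adjusted p = 0.0759) and with trimmed mean of M-values scaling (0.0524). Of 10 dendritic cell markers 7 fell, with a median of -0.58, a summed level of 14495.9 to 15193.4 in ND and 10702.7 to 11473.4 in CDAHFD libraries, and no marker at 0. The part of these cells in the fall of Klrd1 was not tested.

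Klrk1 (chromosome 6, 129610323 to 129623864), the activating receptor NKG2D, read 904, 905 and 1021 in ND and 2208, 2051 and 1973 in CDAHFD libraries. The groups were well apart, and the means were 943 ± 67.3 and 2077 ± 119.6. The log2 fold change was 1.14 (SE 0.06, limma adjusted p = 6.1e-16). Klrk1 shares no 50-base window with other transcripts.

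Klre1 (chromosome 6, 129577905 to 129585827), which forms receptors with the products of Klri1 and Klri2, read 159.5, 154 and 165 in ND and 566, 492 and 476 in CDAHFD libraries. It rose by 1.67 on the log2 scale (SE 0.10; limma, adjusted p = 1.34e-14), and the groups did not overlap. Its partners did not rise with it. Klri1 fell from 179 ± 15 to 134 ± 10.4 (log2 fold change -0.42, SE 0.12, limma adjusted p = 0.00687), and Klri2 stood at 76.1 ± 7.61 and 66.4 ± 5.73 (limma adjusted p = 0.387).

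Klrg1 (chromosome 6, 122270596 to 122282882), an inhibitory receptor for cadherins and a mark of terminally differentiated effector CD8 T cells, lies apart from the others on the chromosome. It read 51.1, 82.7 and 41.5 in ND and 101.5, 94.7 and 119 in CDAHFD libraries. ND replicate 2 stood above the other ND libraries, and the groups still did not overlap. The log2 fold change was 0.89 (SE 0.20, limma adjusted p = 7.81e-04), and 1.17 without ND replicate 2.

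Of the receptors known mainly from NK cells, Klrb1c (chromosome 6, 128778485 to 128789215), which encodes the NK1.1 antigen of C57BL/6 mice, was the one gene of the 10 that was not called. It read 79.2, 92.9 and 76.4 in ND and 87.8, 84.3 and 101 in CDAHFD libraries, with overlapping groups. The log2 fold change was 0.13 (SE 0.16, limma adjusted p = 0.525), with a 95% interval of -0.19 to 0.46. A doubling lies outside that interval. Of its transcripts' 50-base windows, 16.98% occur in other genes, most of them in Gm44511, an overlapping gene model.

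Klrb1f (chromosome 6, 129045901 to 129057464), an activating receptor gene of the same subfamily, did rise. It read 40.7, 41.8 and 38.7 in ND and 77.2, 89.0 and 98.7 in CDAHFD libraries. The log2 fold change was 1.10 (SE 0.19, limma adjusted p = 1.48e-05), and the groups did not overlap.

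The inhibitory Ly49 receptor genes Klra7 (chromosome 6, 130218605 to 130233322) and Klra3 (chromosome 6, 130323289 to 130337574) roughly doubled. Klra7 read 88.6, 95.9 and 85.8 in ND and 198, 194 and 162 in CDAHFD libraries (log2 fold change 1.02, SE 0.14, limma adjusted p = 3.27e-07). Klra3 read 50.04, 89.8 and 68.8 in ND and 136, 118 and 135 in CDAHFD libraries (log2 fold change 0.93, SE 0.18, limma adjusted p = 8.9e-05). In both genes the groups did not overlap, though the ND libraries of Klra3 spread widely. Near-identical copies make both uncertain: 20.7% of the 50-base windows of Klra3 and 12.3% of those of Klra7 occur in other genes, the latter in the pseudogene Klra13-ps, which itself rose from 984 ± 13.3 to 1712 ± 95.2 normalised counts.

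Levels of different genes were compared per kilobase of annotated exon. Klrd1 was the most abundant of the 10 in both diets, with 3335 ± 113 normalised counts per kilobase in ND and 2688 ± 116 in CDAHFD libraries. In ND libraries Klrk1 (131 ± 9.37) and Klrc1 (120.4 ± 12.3) came next and overlapped each other, and the remaining 7 genes lay between 19.9 and 71.2 on this scale. In CDAHFD libraries Klrc1 was second (532 ± 19.8) and clear of Klrk1 (289 ± 16.6). Klre1 (146 ± 13.6) and Klra7 (146 ± 15.7) could not be ordered there, nor could Klrg1 and Klrc2. Klrb1c was last among the 10 in CDAHFD libraries, at 30.7 ± 2.92, and in ND libraries it overlapped Klrg1. The annotated exons of Klrk1 (7183 bases) and Klrc2 (5812 bases) are the longest of the 10, which lowers their values on this scale.

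The balance between partner genes was read within each library. For each Klrd1 read count there was far more Klrc1 under CDAHFD: the ratio of Klrc1 to Klrd1 was 0.0508, 0.0571 and 0.0597 in ND and 0.302, 0.303 and 0.315 in CDAHFD libraries. On the log2(value + 1) scale the difference was 2.46. Klrc1 also rose more than Klrc2, with ratios of 1.76, 2.21 and 2.05 in ND and 2.83, 2.89 and 2.63 in CDAHFD libraries, a log2 difference of 0.48. Klrk1 rose while Hcst, the gene of the adaptor DAP10, did not. Hcst stood at 1397 ± 44.2 in ND and 1346 ± 56.8 normalised counts in CDAHFD libraries (limma adjusted p = 0.425). The ratio of Klrk1 to Hcst went from 0.626, 0.667 and 0.734 to 1.57, 1.52 and 1.53, a log2 difference of 1.19. In none of the 3 comparisons did the diets overlap, and the CDAHFD libraries were the higher ones. An exact two-sided permutation test of the diet labels gave p = 0.1 for each, the smallest that 20 regroupings allow, and the adjusted value over the 3 is also 0.1.

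**Figure D2:**
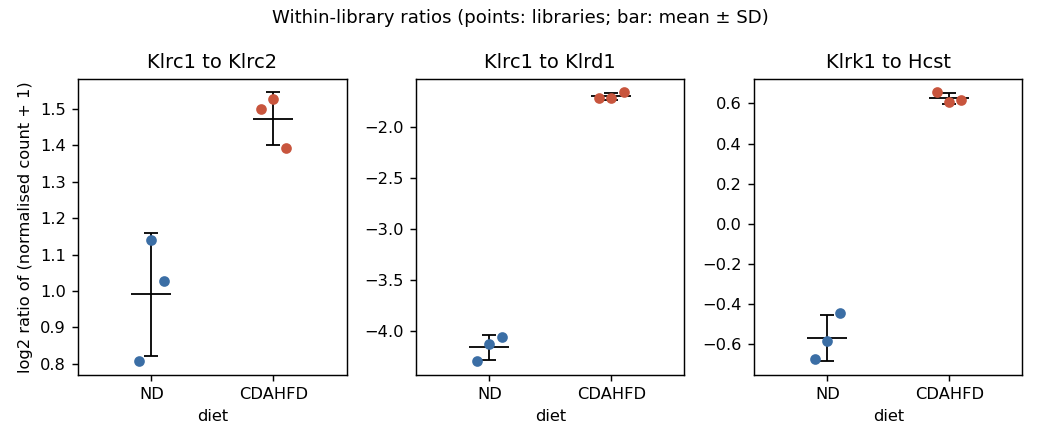
Log2 ratio of (normalised count + 1) within each library for Klrc1 to Klrc2, Klrc1 to Klrd1 and Klrk1 to Hcst, by diet, each panel with its own axis; points are libraries, and bars give the mean ± SD of 3. All 3 ratios are higher in every CDAHFD library, with differences of 0.48, 2.46 and 1.19.

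Among the other family genes, 19 were in the table and 16 could be tested. Of these, 7 were higher, 2 lower and 7 not called, with a median log2 fold change of 0.49. For comparison, 24.6% of all genes tested were higher and 22.5% lower. The largest of these rises was that of Klra2, an Ly49 gene known from myeloid cells, from 98.1 ± 17.7 to 408 ± 12.1 (log2 fold change 2.06, SE 0.12, limma adjusted p = 1.81e-14). Klrc3 rose from 18.9 ± 4.17 to 62.4 ± 5.83, a log2 fold change of 1.69, close to that of Klrc2. Klra10 rose from 54.5 ± 20.8 to 158 ± 10.8 (log2 fold change 1.58) and Klra9 from 40.9 ± 17.4 to 80.5 ± 4.11 (log2 fold change 1.05), and their transcripts share 39.8% and 31.5% of 50-base windows with other genes. Klra6 (0.51) and Klra5 (0.89) rose in log2 terms as well, but both calls were lost when single libraries were left out (for Klra5, adjusted p = 0.123 without ND replicate 3; for Klra6, 0.0748 without CDAHFD replicate 2). For Klra5 the adjusted p was also 0.089 without ND replicate 1, 0.0658 and 0.0663 without CDAHFD replicates 2 and 3, and 0.0881 by DESeq2, and for Klra6 it was 0.0549 without ND replicate 1.

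The fall beside Klri1 was that of Klra4, which encodes the activating receptor Ly49D, from 49.8 ± 5.88 to 26.9 ± 6.37 (log2 fold change -0.88, SE 0.24, limma adjusted p = 0.00353). Klra8, which encodes Ly49H, the activating receptor for a cytomegalovirus protein, stood at 46.8 ± 10.9 and 64 ± 5.12 (limma adjusted p = 0.0659, and 0.0401 without ND replicate 2), and Klra1 at 34.2 ± 4.46 and 49.9 ± 6.73 (limma adjusted p = 0.0537, and 0.0317 without CDAHFD replicate 1). Klra17, known from plasmacytoid dendritic cells, Klra14-ps, Klrb1b, Klrg2 and Klri2 did not pass the test either, with log2 fold changes of -0.04, 0.47, 0.06, 0.34 and -0.19, though Klra14-ps was called higher without CDAHFD replicate 1 (adjusted p = 0.0247). Klrb1a, Klrb1 and Klrb1-ps1 were too low to test, with 20, 6 and 2 reads over the ND and 22, 8 and 2 over the CDAHFD libraries.

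**Figure D3:**
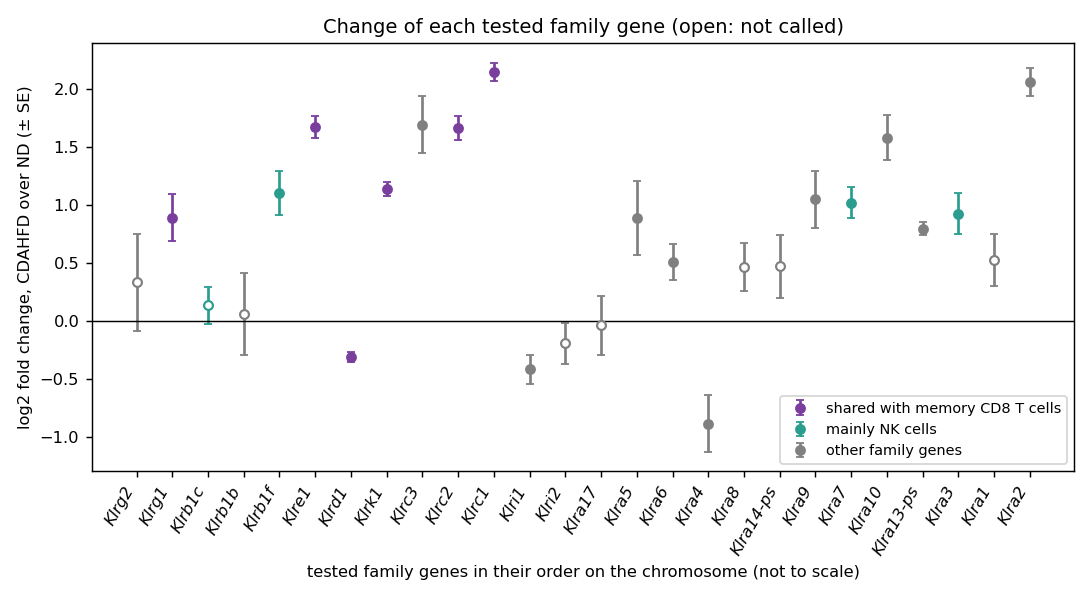
Log2 fold change (CDAHFD over ND, ± SE) of the 26 tested family genes in their order on chromosome 6, equally spaced and so not to scale; filled points were called and open points were not. Klrd1, at -0.31, stands between Klre1 (1.67) and Klrk1 (1.14), and Klrc3, Klrc2 and Klrc1 follow at 1.69, 1.66 and 2.15.

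Genes next to each other could differ in direction. In the stretch from Klre1 to Klrc1, which holds 6 neighbouring family genes, 5 rose and Klrd1 fell, and Klri1, the family gene after Klrc1, fell.

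The adaptors and signalling molecules of these receptors, a list of 23 genes with 22 tested, gave 12 rises, 6 falls and a median of 0.12. Of all genes tested, 24.6% rose and 22.5% fell. Under the alternative settings given below, the rises numbered 10 to 12 and the falls 5 or 6. Small changes lost their calls in some settings: Crk (0.11), Plcg2 (0.15), Ptpn11 (0.13) and Pik3cd (-0.14). The 5 genes of the list with the smallest adjusted p all rose. Sh2d1b1, the adaptor EAT-2, rose from 66.1 ± 9.15 to 411 ± 16.5 (log2 fold change 2.63), Fcer1g from 472 ± 5.89 to 2135 ± 82.3 (2.17) and Tyrobp, the adaptor DAP12 of NKG2C and activating Ly49 receptors, from 753 ± 63.1 to 2109 ± 8.24 (1.49). The kinase gene Syk (1.17) and Vav2 (1.19) rose too. Macrophages express Tyrobp, Fcer1g and Syk, and all 16 macrophage markers rose in the same libraries, with a median log2 fold change of 2.97, a summed level of 22723.2 to 25388.3 in ND and 172436.1 to 189079.7 in CDAHFD libraries, and no marker at 0. The rise of Lyz2 alone among the 16 was lost without ND replicates 1 or 3 or CDAHFD replicate 1 (adjusted p = 0.0947, 0.0563 and 0.0737). The part of macrophages in the rises of the adaptors and of Klra2 was not tested.

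Of 22 ligand genes listed, 18 were in the table and 11 could be tested. Of these 4 rose, 1 fell and 6 were not called, with a median log2 fold change of 0.02. Over all genes tested 24.6% rose and 22.5% fell. H2-T23, which encodes the Qa-1 molecule that NKG2A and NKG2C bind, fell from 12176 ± 148 to 9779 ± 199 (log2 fold change -0.32, SE 0.04, limma adjusted p = 4.6e-08), while Klrc1 rose. Cdh1, the E-cadherin gene whose product KLRG1 binds, rose from 68.6 ± 4.94 to 327 ± 20.2 (log2 fold change 2.24), and Ulbp1, a ligand gene of NKG2D, from 617 ± 25.7 to 861 ± 15.9 (0.48). H2-D1 rose by 0.20 on the log2 scale. B2m, at 0.11 (limma adjusted p = 0.0357), had overlapping groups, and its call was lost without ND replicates 1 or 3 (adjusted p = 0.209 and 0.0962), without CDAHFD replicates 1 or 3 (0.148 and 0.073), with no filter (0.0851), with equal totals (0.0711) and with the replicate block (0.0668), which left 3 rises in the list. The count of falls was 2 with equal totals and 3 without CDAHFD replicate 1.

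NK cells were followed by 5 defining markers outside the family. Ncr1, which encodes the NK receptor NKp46, read 49.0, 33.7 and 66.0 in ND and 24.3, 34.1 and 43.6 in CDAHFD libraries, and the groups overlapped. Its log2 fold change was -0.52 (SE 0.26, limma adjusted p = 0.107, 95% interval -1.05 to 0.02), and it was called lower without ND replicate 2 (-0.76, adjusted p = 0.0274) or without CDAHFD replicate 3 (-0.71, adjusted p = 0.0463). Itga2 rose from 155 ± 6.91 to 198 ± 12.6 (log2 fold change 0.35, limma adjusted p = 0.0138), a call that was lost without ND replicate 3 (adjusted p = 0.0509) or CDAHFD replicate 3 (adjusted p = 0.0698). Adamts14 (-0.31, adjusted p = 0.145, though called lower without CDAHFD replicate 2 at adjusted p = 0.012) and Styk1 (0.31, adjusted p = 0.61) did not pass the test, and Khdc1a was too low to test. The summed level of the 5 was 383.7 to 444.1 in ND and 330.9 to 442.3 in CDAHFD libraries, and Khdc1a was at 0 in CDAHFD replicates 1 and 3. Most of that sum came from Itga2 and Adamts14 (189 ± 20.9 in ND and 156 ± 42.6 in CDAHFD libraries). It therefore says little about Ncr1, Styk1 or Khdc1a. The median log2 fold change of the 4 tested was 0.00, but it lies between Adamts14 (-0.31) and Styk1 (0.31), and no marker stood near it. The part of NK cells in the receptor values was not tested.

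Other genes that NK cells share with T or myeloid cells were mixed. Of 10 tested in a wider NK list, which includes the 5 defining ones, 4 rose and 2 fell. The shares over all genes tested were 24.6% and 22.5%. The granule protein gene Nkg7 (log2 fold change 0.29) and the receptor gene Cd244a (0.70) rose, the Fc receptor gene Fcgr3, which macrophages express, rose by 2.91, and Gzma (-0.81) and Irf8 (-0.29) fell.

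Genes of memory and effector CD8 T cells were mostly higher in the same libraries. Of the 26, 23 rose and 2 fell, where 24.6% of all genes tested rose and 22.5% fell. The median log2 fold change was 0.87, and that of the 6 shared receptors was 1.40. The list holds several granzyme genes, but Gzma, which fell (-0.81), was placed in the wider NK list instead. The counts depend on such placements, and the lists were drawn up with earlier results of these data known. Il18r1, a cytokine receptor chain, rose from 2355 ± 16.3 to 4837 ± 102 (log2 fold change 1.04), and Zeb2, a transcription factor of terminal effector cells, from 506 ± 42.2 to 1624 ± 69 (1.68). Ccl5 (2.16), Cd44 (1.57) and Gzmk (3.54) were the others with the smallest adjusted p. Tbx21 and Eomes, the T-box factors of NK and memory T cells, were named after their values were seen and stood at 0.83 and 0.15 (for Eomes, adjusted p = 0.0505 without ND replicate 2). The 2 that fell, also named after their values were seen, were Ly6c2 (-0.42) and Cd7 (-0.28), and Xcl1 was not called (0.25). The list summed to 51036.4 to 51545.8 in ND and 89800.0 to 90276.5 in CDAHFD libraries. Macrophage markers were higher in the same libraries (16 of 16, median 2.97), and myeloid cells express Zeb2 and Cd44 too. The part of macrophages in the rises of this list was not tested.

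**Figure D4:**
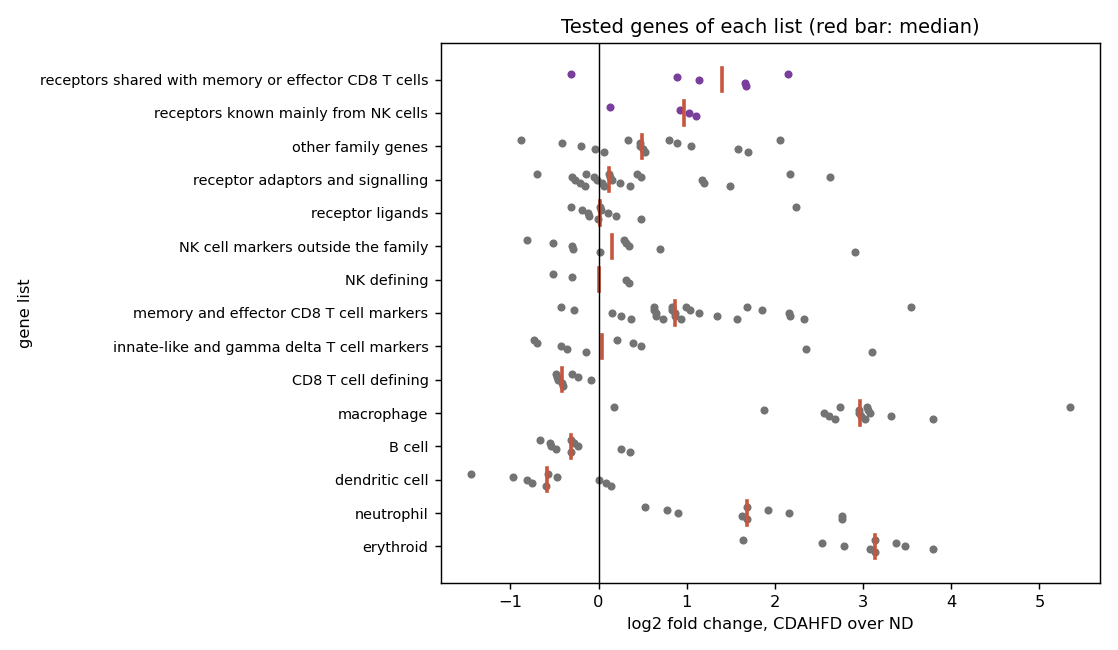
Log2 fold change (CDAHFD over ND) of every tested gene in each list, 1 point per gene, with a red bar at the list median; purple points are the 10 receptor genes. The median was 1.40 for the shared receptors, 0.97 for the NK receptors and 0.87 for memory CD8 T cell genes. The 4 tested NK defining markers spread from -0.52 to 0.35, with none near their median of 0.00. Macrophage (2.97), neutrophil (1.68) and erythroid (3.13) markers lie furthest to the right.

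RNA of other cells' marker genes was detected in all libraries. All 10 neutrophil markers and all 9 erythroid markers in the table rose, with medians of 1.68 and 3.13 (Cxcr2 by 2.76 and Hba-a1 by 3.38), and of 10 B cell markers 2 rose and 8 fell, with a median of -0.31 (Pax5 by -0.55). The part of these RNAs in the receptor values was not tested.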

How the data were processed

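RNA sequencing of CD8+ T cells from mouse spleen was analysed in 6 libraries, 3 per diet, with 1 column each. The authors deposited 1 table of signal values, which are read counts per gene divided by 1 factor per library. Within each column 100% of values were whole multiples (within 0.001) of the smallest value above 0, so whole reads were recovered. They totalled 25314988 to 28067393 per library. Per the submitters' processing notes the build was mm10, while the aligner, counting tool, strand setting and read length are not stated in those notes or labels. Columns spelled CDHFD were matched to the CDAHFD samples. Nothing says that libraries came from separate animals. The p-values therefore rest on library-to-library spread alone, possibly technical.

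Symbols matched 26147 of 26181 Ensembl IDs. Positions, exon lengths and transcripts came from GENCODE mouse release M21 (GRCm38, the same build), and promoters from RefSeq (GRCm38.p6). The test was limma 3.58.1 (R 4.3.3; robust, with a trend), run on log2(normalised count + 1) over 15819 genes whose mean reached 10, with Benjamini-Hochberg adjustment over them. Adding 1 shrinks ratios of low counts, yet fitted changes of low genes were not always the smaller ones. Beside edgeR, the limma log2 fold change was smaller for Klrb1f (1.10 against 1.13) and larger for Klrg1 (0.89 against 0.85). edgeR 4.0.16 and DESeq2 1.42.0 were run on recovered reads, and edgeR called 7536 genes against 7449 by limma. The script was tested on simulated data. Of 42 family symbols listed, 29 were in the table and 13 are not analysed here. Named were the 10 members, all other family genes, the NK defining markers and up to 5 genes per other list with the smallest adjusted p. The members and lists were chosen with earlier results of these data known.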

Additional observations from a re-analysis of the deposited data

How the results depend on the processing

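The 10 receptor genes kept their calls and directions under all 15 alternatives (150 refits in all): pseudocounts of 0.5 and 5, the low-count filter dropped or raised to a mean of 50, trimmed mean of M-values or equal totals scaling, edgeR, DESeq2, a replicate block and each library left out. In each, 8 rose, 1 fell and Klrb1c was not called. The range was 2.06 to 2.19 for Klrc1, -0.35 to -0.28 for Klrd1, 0.68 to 1.17 for Klrg1, 0.71 to 1.13 for Klra3 and 0.06 to 0.22 for Klrb1c. Left-out libraries moved the log2 difference of Klrc1 to Klrc2 between 0.39 and 0.56, of Klrc1 to Klrd1 between 2.39 and 2.51 and of Klrk1 to Hcst between 1.14 and 1.25. Scaling moved the median of all genes by less than 0.1 (-0.04 with equal totals). Of all genes in the lists, 168 tested, no called direction reversed, and 39 refits lost a call and 19 gained one.

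Same-numbered libraries did not deviate together: the correlations of ND and CDAHFD deviations were 0.04, -0.05 and 0.06, and not every library correlated best with its own number. With the replicate block, 3806 genes rose and 3444 fell, against 3886 and 3563, and the 3 ratio differences were again 0.48, 2.46 and 1.19 (exact sign-flip p = 0.25, the smallest that 3 pairs allow). Klrb1f rests on 121 reads over the ND and 269 over the CDAHFD libraries and Klrg1 on 174 and 319, which limits their precision.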

Other observations

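Innate-like and gamma delta T cells also carry several of these receptors. Of 10 of their markers tested, 3 rose and 3 fell, and the median log2 fold change was 0.04. These counts are near the shares over all genes tested, of which 24.6% rose and 22.5% fell. The constant segments Tcrg-C2 and Tcrg-C4 of the gamma chain rose from 96.9 ± 23.5 to 822 ± 10.1 and from 60 ± 10.8 to 308 ± 3.23 normalised counts (mean ± SD of 3 libraries), with log2 fold changes of 3.10 and 2.36. Trdc, the constant region of the delta chain, fell from 253 ± 23.1 to 156 ± 19.1 (log2 fold change -0.70), and Cd163l1, a scavenger receptor of gamma delta T cells, from 657 ± 36.9 to 394 ± 8.51 (-0.73). Blk, the B lymphoid kinase gene, fell as well (-0.43). Of 10 B cell markers 8 fell and 2 rose in the same libraries, and the part of B cells in the fall of Blk was not tested. The likeness of the gamma constant segments to each other was not measured, so the division of their reads remains uncertain. The count of rises in this list was 5 without CDAHFD replicate 2.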
